A study of Mus musculus with 3 samples.

Results

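The 38 genes described here encode the enzymes and membrane proteins of the lysosome, its proteins without enzyme activity, and the subunits of the V-ATPase, the proton pump that acidifies it. They were named from a list of lysosomal genes, and all probe sets with a listed gene as their only annotated symbol were taken. In all, 36 of the 38 had a probe set, of 18193 named genes, through 89 probe sets. They are 17 enzymes, 5 membrane proteins, 3 luminal proteins and 11 V-ATPase subunits. Cd63 and Atp6v0c were not analysed here. The RNA came from 4T1, a mouse mammary carcinoma cell line grown in RPMI medium with fetal bovine serum, and was hybridised to 3 Affymetrix arrays, 1 for each culture condition. The array called regular medium holds cells in that medium alone, with no culture time in the labels. The conditioned-medium array holds cells kept in medium from MSCs (an abbreviation commonly used for mesenchymal stem cells), and the co-culture array holds cells isolated after contact with MSCs, both for 1 week. The labels do not give the source of the MSCs or how the 4T1 cells were separated from them. With 1 array a condition there is no replicate error, so no difference below has a test or a p-value.

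The lysosome breaks down proteins, glycans and lipids delivered by endocytosis and autophagy, with acid hydrolases that work at the low pH the V-ATPase keeps. The pump has a V1 sector in the cytosol, which splits ATP, and a V0 sector in the membrane, which carries protons. Many lysosomal genes share a short palindromic promoter element of the E-box type, bound by TFEB, TFE3 and MITF, transcription factors that are held in the cytosol by mTORC1 signalling at the lysosome when nutrients are plentiful.

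Values are MAS5 signals, which summarise the probes of a probe set on a linear scale after each array is scaled to a common level. The brightest probe set stands for a gene. A gene is called bright in a comparison where the brighter of its signals is at or above 149.3, the 60th percentile of all signals. A bright gene is called higher or lower where its signals differ at least 2-fold. On a single array, bright means a signal at or above 149.3. Signals below 42.4, the 40th percentile, were set to that floor. The arrays had 2%-trimmed means of 497.7 to 498.0 and medians of 71.6 to 79.8. The median log2 difference of all bright genes between co-culture and regular medium was 0.07. Scaling the arrays to equal medians brought it to 0.21, and the calls over all genes went from 546 higher and 259 lower to 801 and 167. Of 10 epithelial markers of 4T1 cells, 9 were bright on every array, among them Epcam, Krt8 and Krt18. Between co-culture and regular medium St14 was 2.04-fold higher, Itgb4 1.83-fold and Cldn4 1.75-fold, and Krt14 was 2.77-fold lower.

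Most of the lysosomal genes had their highest signal in co-culture and nearly equal signals in the other conditions. The co-culture signal was the highest of the 3 for 27 of the 36 genes, the lowest for 4 and in between for 5. Against regular medium the co-culture signal was above for 28 and below for 8. Over all 9393 genes bright in this comparison, 56.0% lay above and 44.0% below. The 2-fold rule called 6 genes higher, namely Scarb2, Atp6v0d1, Sgsh, Naglu, Grn and Atp6v0b, beside 5.81% of all bright genes, and called none lower, beside 2.76%. At 1.5-fold, 10 of the 36 were higher, beside 16.9% of all bright genes, and none was lower, beside 9.86%. The genes were listed with earlier results of these arrays known, so these counts are a description. All 36 were bright in this comparison, but Sgsh and Naglu only through the co-culture array, so they could not have met the rule in the lower direction. The median log2 difference of the 36 was 0.43, a fold of 1.35, with a range from -0.54 to 2.00. RNA of this kind comes from many cells, so a higher signal in each cell and a larger share of cells with a high signal cannot be told apart.

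**Figure D1:**
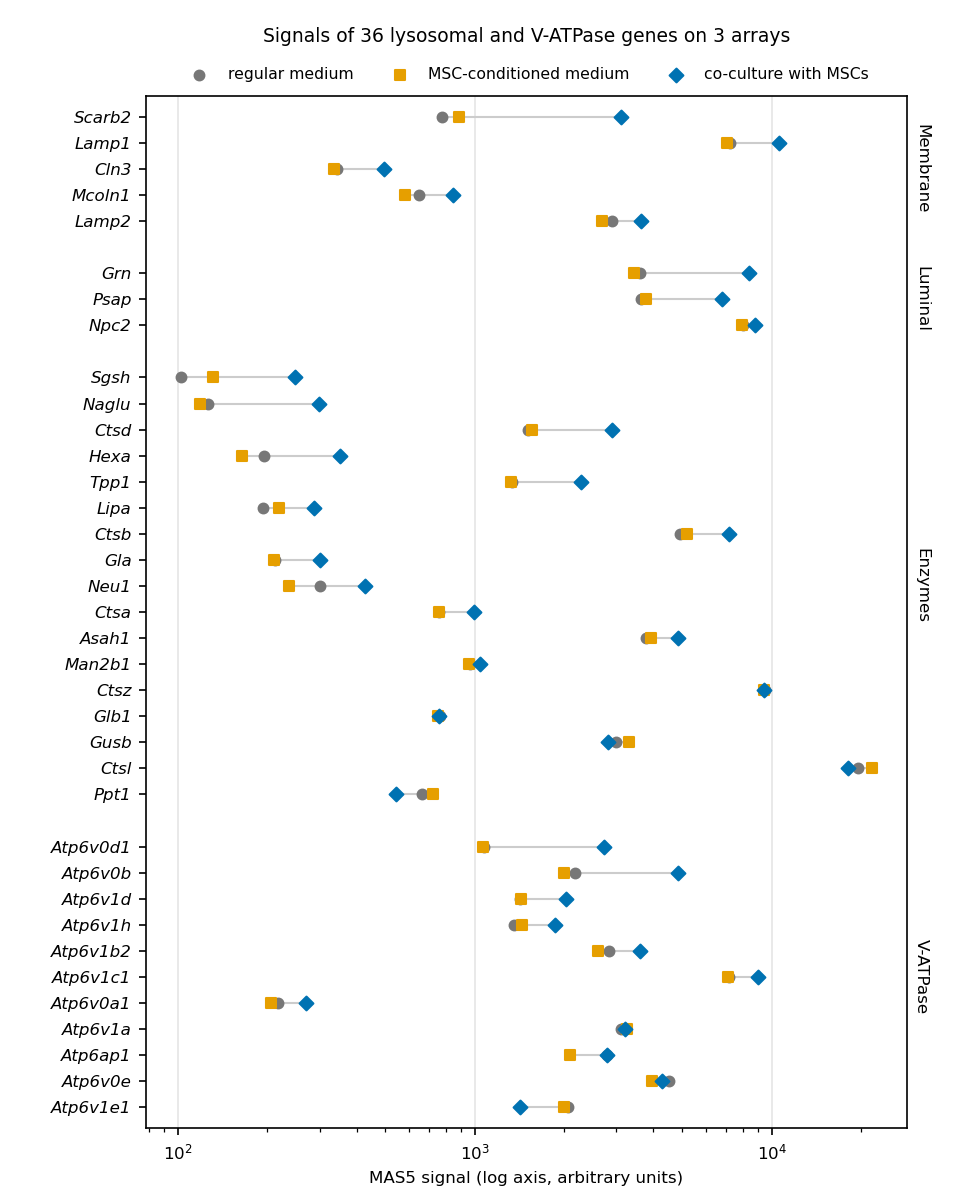
MAS5 signal (log axis, arbitrary units) of the 36 genes on the array of regular medium (circles), MSC-conditioned medium (squares) and co-culture (diamonds), 1 array each, grouped by role and ordered by the difference between co-culture and regular medium. The diamond lies furthest right for 27 genes, and the circle and the square lie within 1.2-fold of each other for 33.

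Promoters are printed for the genes with the largest differences between co-culture and regular medium whose promoter holds the E-box core. The sequences are from RefSeq (GRCm38.p6), 5′ to 3′ on the strand of the gene, from 110 bases before the annotated transcript start to 10 bases after it, with the core CACGTG in capitals.
Atp6v0d1, chr8:105566055-105566174, minus strand: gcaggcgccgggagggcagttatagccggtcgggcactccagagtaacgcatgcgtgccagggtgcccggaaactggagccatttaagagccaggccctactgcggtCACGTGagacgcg
Sgsh, chr11:119355501-119355620, minus strand: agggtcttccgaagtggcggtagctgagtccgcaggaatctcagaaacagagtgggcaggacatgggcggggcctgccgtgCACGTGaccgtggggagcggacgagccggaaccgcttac
Naglu, chr11:101069984-101070103, plus strand: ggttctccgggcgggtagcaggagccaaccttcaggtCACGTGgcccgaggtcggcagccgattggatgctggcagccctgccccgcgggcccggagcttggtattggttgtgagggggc
Atp6v0b, chr4:117887320-117887439, minus strand: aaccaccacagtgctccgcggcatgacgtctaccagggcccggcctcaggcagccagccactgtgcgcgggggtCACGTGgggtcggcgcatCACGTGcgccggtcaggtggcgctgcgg
Ctsd, chr7:142387818-142387937, minus strand: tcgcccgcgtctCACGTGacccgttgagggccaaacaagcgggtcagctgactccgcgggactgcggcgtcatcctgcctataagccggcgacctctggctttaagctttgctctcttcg

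Of the 36 genes, 31 had a promoter entry of 300 bases, from 250 before the start to 50 after it. The letters CACGTG, which read the same on both strands, were found for 14 of the 31 genes, or 45.2%. Over all genes with a promoter entry 8.09% held them, and over the genes bright in co-culture or regular medium 12.5%. By promoter, the share was 7.15% of all 32851 promoters. The longer form TCACGTGA, which contains the core, was found for 8 of 31 genes, or 25.8%, beside 1.12% of all genes and 2.46% of bright genes. Among 36 further lysosomal genes that were bright and had an entry, 4 held the core, or 11.1%, which is near the share of all bright genes. The 45.2% therefore describes the listed genes and not lysosomal genes at large. Whether the element played a part in drawing up the list is not known here. The full 10-letter palindrome known as the CLEAR element was found for Cln3 alone, beside 0.37% of all genes. Lamp1 had 4 copies of the core, which start 61, 45, 28 and 15 bases before the transcript start. In all there were 23 copies in the 14 genes, 16 of them within 100 bases of the start.

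The genes with and without the core had overlapping differences between co-culture and regular medium. The 14 with the core had a median log2 difference of 0.52, from -0.12 for Ctsl to 1.35 for Atp6v0d1. Of these genes 4 were called higher, beside 5.81% of all bright genes. Sgsh and Naglu are among the 4 and were bright through the co-culture array alone, so the rule could not have called them lower. The 17 without the core had a median of 0.32, from -0.54 for Atp6v1e1 to 2.00 for Scarb2, and 2 were called higher. The windows of Scarb2 and Grn do not hold these letters, which says only that they are not within these 300 bases. A match is a description of the letters and not of a bound site.

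**Figure D2:**
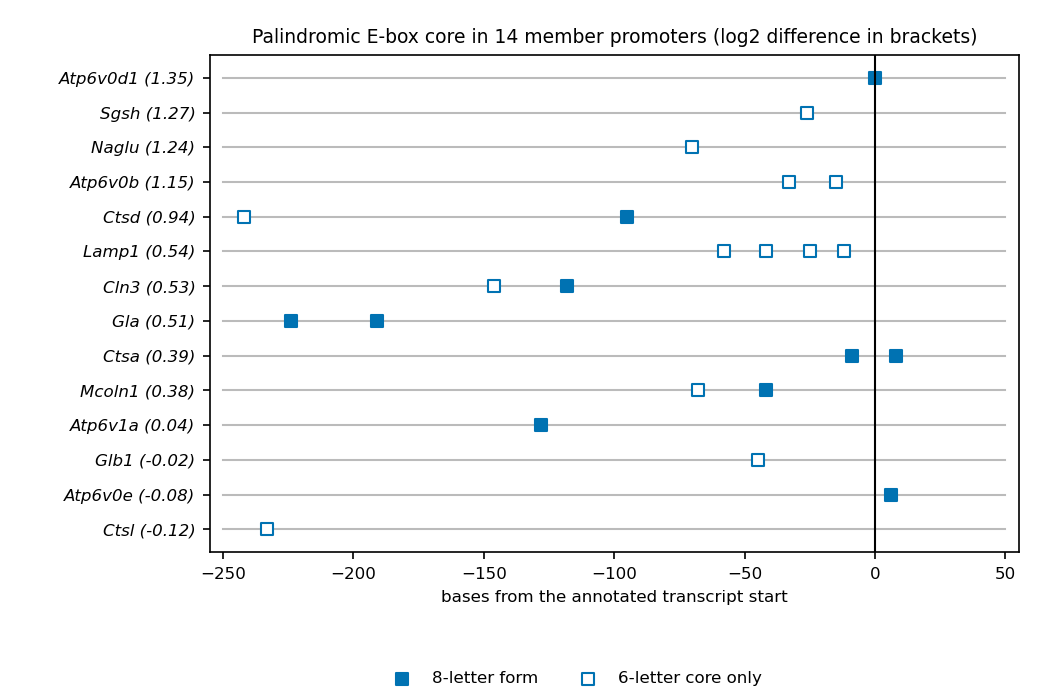
Positions of the E-box core in the promoters of 14 genes, from 250 bases before the annotated transcript start (vertical line) to 50 after it, with filled squares for the 8-letter form and open squares for the core alone. Genes are ordered by the log2 difference between co-culture and regular medium, given in brackets, and 16 of the 23 copies lie within 100 bases of the start, while Cln3, Gla, Atp6v1a and Ctsl have none there.

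All 5 membrane proteins had higher signals in co-culture than on either other array. Over all bright genes, 56.0% lay above regular medium and 56.0% above conditioned medium. Scarb2 (LIMP-2), the receptor that carries beta-glucocerebrosidase to the lysosome, had signals of 778 in regular medium, 887 in conditioned medium and 3108 after co-culture. This was 4.00-fold above regular medium and the largest difference among the 36 genes. Its other probe set gave 593, 684 and 1756, a fold of 2.96, so both place co-culture apart from the other arrays.

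The major glycoproteins of the lysosomal membrane differed less. Lamp1 had 7261 in regular medium, 7052 in conditioned medium and 10592 after co-culture, a fold of 1.46 over regular medium. Lamp2, which also serves in chaperone-mediated autophagy, had 2891, 2679 and 3620 with the probe set that stands for it, a fold of 1.25. Its 3 other probe sets gave folds of 1.36, 1.55 and 1.95, so all 4 were above regular medium and differed in size. Cln3, the membrane protein lost in juvenile neuronal ceroid lipofuscinosis, had 343, 335 and 494, a fold of 1.44. Mcoln1 (TRPML1), the calcium channel of the lysosome, had 648, 581 and 844, a fold of 1.30. The median log2 difference of the 5 was 0.53, and only Scarb2 passed 1.5-fold.

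The luminal proteins without enzyme activity divided into a pair that differed and 1 that was close to level. Grn, the precursor of the granulins, had 3610 in regular medium, 3432 in conditioned medium and 8384 after co-culture, 2.32-fold above regular medium. The other Grn probe sets gave folds of 2.71 and 2.99. Psap, the precursor of the saposins that help enzymes reach their sphingolipid substrates, had 3625, 3774 and 6817, a fold of 1.88, and 1.57 with its other probe set. Npc2, which hands cholesterol from the lumen to the membrane protein NPC1, had 8010, 7921 and 8786, a fold of 1.10. A dimmer probe set of Npc2, at 72.9, 100.7 and 153.6, gave 2.11.

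Among the 17 enzymes, 12 had higher signals in co-culture than in regular medium, or 70.6%, beside 56.0% of all bright genes. The other 5 had lower ones, and the median log2 difference of the 17 was 0.50. With signals above the 80th percentile only, the median was 0.24 over 10 enzymes, and Naglu and Sgsh, described next, were no longer bright. The largest differences were those of a pair of enzymes that degrade heparan sulfate. Naglu, the alpha-N-acetylglucosaminidase, had 126.6 in regular medium, 118.5 in conditioned medium and 298.6 after co-culture, a fold of 2.36. Sgsh, the sulfamidase, had 102.3, 131.0 and 247.3, a fold of 2.42. Its other probe set gave 108.4, 76.9 and 91.9, which lie below the bright level and do not place co-culture apart, so the call for Sgsh rests on 1 dim probe set.

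Of the other enzymes of glycans and glycolipids, Hexa, the alpha chain of beta-hexosaminidase, had 195.4, 164.4 and 352.5 in regular medium, conditioned medium and co-culture, a fold of 1.80 over regular medium. The sialidase gene Neu1 had 300.8, 237.4 and 426.8, a fold of 1.42. Gla, the alpha-galactosidase, had 212.4, 211.0 and 301.8, also a fold of 1.42. These 3 enzymes were highest in co-culture but stayed under the 2-fold rule. Man2b1, the alpha-mannosidase, and Glb1, the beta-galactosidase, had log2 differences of 0.12 and -0.02. Gusb, the beta-glucuronidase, had 2994, 3314 and 2819. Its second probe set gave 1710, 1844 and 808, a fold of 2.12 lower, so the 2 probe sets differ in size.

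The proteases ranged from close to 2-fold higher to slightly lower. Ctsd, the aspartic protease cathepsin D, had 1509 in regular medium, 1565 in conditioned medium and 2903 after co-culture, a fold of 1.92. Tpp1, the tripeptidyl peptidase, had 1331, 1330 and 2273, a fold of 1.71, and its dimmer probe set gave 2.32. Ctsb, the cysteine protease cathepsin B, had 4919, 5200 and 7209, a fold of 1.47, with 1.19 from the other strong probe set. Ctsa, protective protein and carboxypeptidase, had 759, 756 and 997, a fold of 1.31.

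Ctsl and Ctsz, cysteine proteases like Ctsb, did not share its difference with the probe sets that stand for them. Ctsl had 19608 in regular medium, 21830 in conditioned medium and 18081 after co-culture. Ctsz had 9527, 9419 and 9446, which are all within 1.2-fold, while its other probe sets gave folds of 1.31 and 1.44 between co-culture and regular medium.

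The enzymes of lipids and thioesters did not move as a group. Lipa, the acid lipase that frees cholesterol from its esters, had 194.2 in regular medium, 218.5 in conditioned medium and 286.8 after co-culture, a fold of 1.48. Its other probe sets, below the bright level, did not share that size. They had 138.7, 133.5 and 132.8, a fold of 0.96, and 99.7, 96.2 and 116.5, a fold of 1.17. Asah1, the acid ceramidase, had 3772, 3916 and 4836, a fold of 1.28. Ppt1, which removes palmitate from proteins, had 663, 724 and 542 and was lowest in co-culture, 1.22-fold below regular medium. Its second bright probe set gave 445, 396 and 242, 1.84-fold lower.

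**Figure D3:**
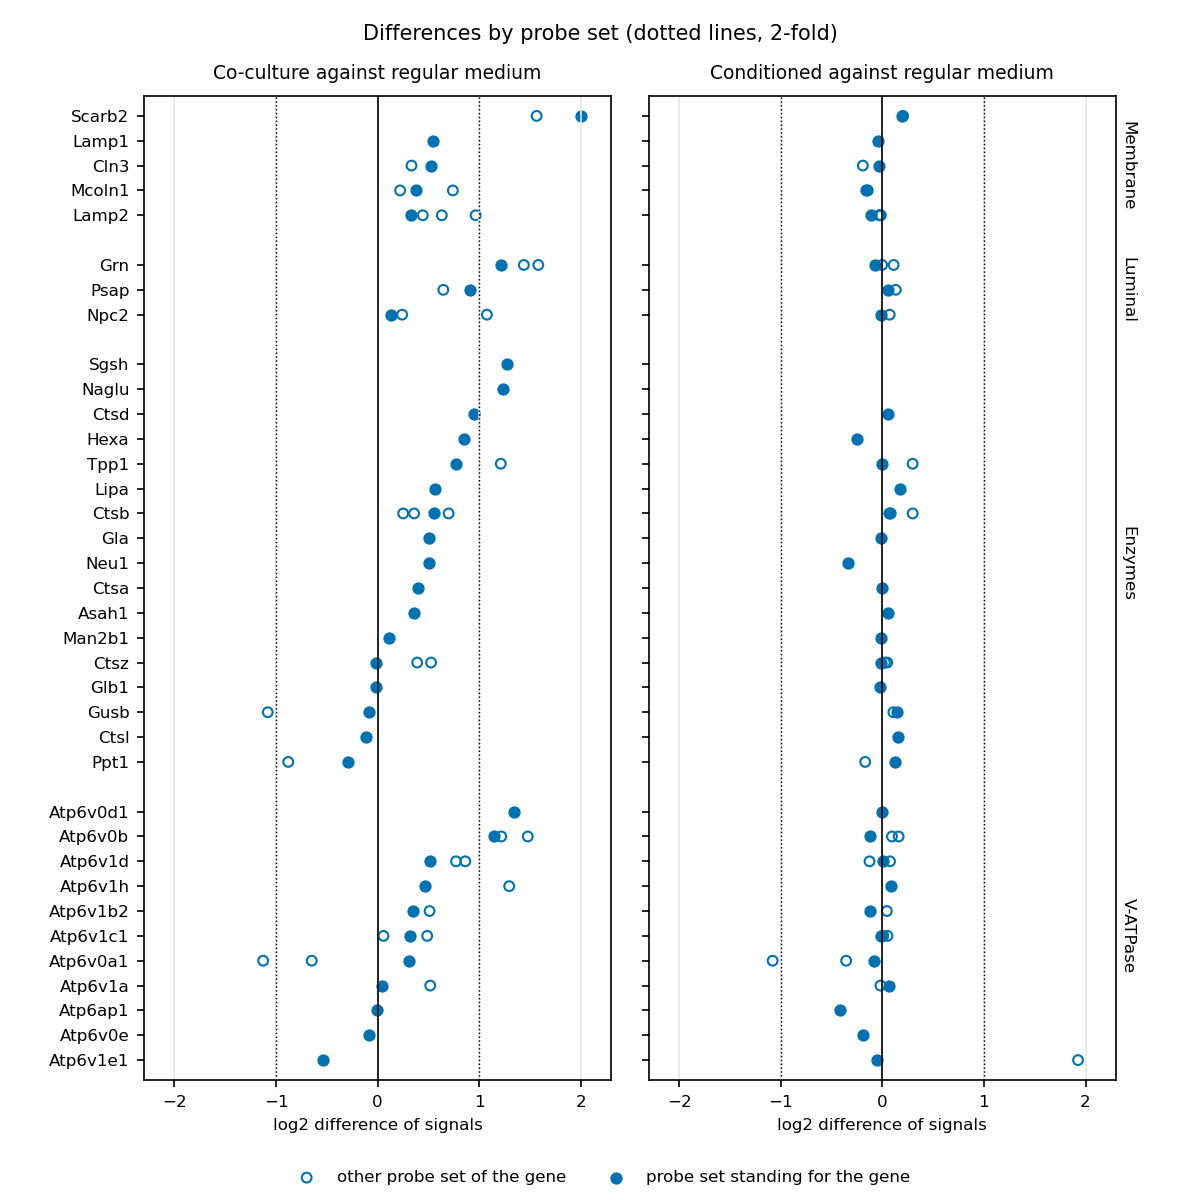
Log2 difference of signals for every bright probe set of the 36 genes, co-culture against regular medium on the left and conditioned against regular medium on the right, with filled points for the probe set that stands for the gene and dotted lines at 2-fold. On the left 55 of 67 bright probe sets lie above 0, and on the right 29 of 62. Genes with several probe sets count more than once, and the share over all bright probe sets was not computed.

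Within the V-ATPase, the subunits called higher were both in the V0 sector. Atp6v0d1, the subunit d that couples V0 to the central stalk, had 1072 in regular medium, 1067 in conditioned medium and 2724 after co-culture, a fold of 2.54. Atp6v0b, one of the proteolipids of the proton-carrying ring, had 2179, 1998 and 4825, a fold of 2.21. Its other probe sets gave folds of 2.32 and 2.79, and all 3 place co-culture above the other arrays. The names of all 3 mark possible cross-hybridisation, so without such probe sets Atp6v0b has no value. The other listed V0 genes with a probe set were not called higher. Atp6v0e, a small V0 subunit, had 4516, 3970 and 4263, and co-culture lay between the other arrays.

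Atp6v0a1, an isoform of the large subunit a, gave opposite results by probe set. The brightest had 217.7 in regular medium, 205.6 in conditioned medium and 269.9 after co-culture, a fold of 1.24. Another had 199.2, 155.6 and 91.2, which is 2.18-fold lower in co-culture, and the next brightest was 1.57-fold lower. No direction is given for this gene.

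The 6 listed V1 subunits had smaller differences than Atp6v0d1 and Atp6v0b, with the probe sets that stand for them. Their median log2 difference was 0.34, with a range from -0.54 to 0.51, and none passed 1.5-fold. Other bright probe sets of Atp6v1d and Atp6v1h did pass it, as given next. Atp6v1d, of the central stalk, had 1426 in regular medium, 1430 in conditioned medium and 2033 after co-culture, a fold of 1.43, with 1.71 and 1.82 from its other probe sets. Atp6v1h, a regulatory subunit, had 1355, 1440 and 1868, a fold of 1.38. A dimmer probe set of Atp6v1h, at 96.8, 49.5 and 237.5, gave 2.45. Atp6v1b2, of the ATP-binding head, had 2824, 2594 and 3605, a fold of 1.28. These 3 were each highest in co-culture.

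Other V1 genes lay closer to regular medium. Atp6v1c1, of the stalk that links the sectors, had 7178, 7124 and 8979, a fold of 1.25. Atp6v1a, the catalytic subunit, had 3119, 3254 and 3209, a fold of 1.03, and 1.43 with its other probe set. Atp6v1e1, of the peripheral stalk, had 2063, 1994 and 1423. This was 1.45-fold below regular medium and the lowest value of the 36 genes. The accessory subunit gene Atp6ap1 had 2798, 2099 and 2787, with conditioned medium below both other arrays. The 11 V-ATPase genes had a median log2 difference of 0.32.

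Probe sets of the same gene show how far a value depends on the probes, though they can also read different transcript forms. They share the same RNA and the same array, so their agreement holds no error between cultures, isolations or arrays. Of 19 genes with more than 1 bright probe set, 15 had all of them above regular medium in co-culture, 2 had all below, and 2, Atp6v0a1 and Ctsz, had both directions. The range between the probe sets of a gene had a median of 0.45 on the log2 scale, about the size of the median difference of the 36 genes. A difference of that size in a single gene is no larger than the usual spread between its probe sets. Over the 67 bright probe sets of these genes, 14 were at least 2-fold higher and 2 at least 2-fold lower, the latter being those of Gusb and Atp6v0a1. A gene with several probe sets counts more than once here. The share over all bright probe sets of the arrays was not computed, so these counts have no background beside them.

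In conditioned medium the signals of the lysosomal genes lay close to those of regular medium. Of the 34 bright in this comparison, none was called higher or lower, beside 0.109% and 0.306% of the 9152 bright genes. None reached 1.5-fold either, beside 0.754% higher and 1.46% lower. The signal was above regular medium for 12 and below for 22, where 53.7% of all bright genes lay above and 46.3% below. The median log2 difference was -0.01 and the range from -0.41 for Atp6ap1 to 0.19 for Scarb2. The medians were 0.00 for the enzymes, -0.04 for the membrane proteins and -0.05 for the V-ATPase subunits. Neu1 at -0.34 and Hexa at -0.25 were the next furthest below. With other probe sets, Atp6v1e1 had 45.3 in regular medium and 172.2 in conditioned medium, and Atp6v0a1 had 157.9 and 74.7. These are the 1 bright probe set at least 2-fold higher and the 1 at least 2-fold lower, each with its brighter signal just above 149.3. The brightest probe sets of these genes had log2 differences of -0.05 and -0.08, and another of Atp6v0a1 had -0.36.

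Co-culture set against conditioned medium, which shares the co-culture array with the comparison above, gave 6 of 36 genes higher, beside 5.83% of 9350 bright genes, and none lower, beside 2.6%. At 1.5-fold 12 were higher and none lower, beside 16.9% and 9.95%. The signal was above for 31 and below for 5, beside 56.0% and 44.0%. Scarb2 was 3.50-fold higher, Atp6v0d1 2.55-fold, Naglu 2.52-fold, Grn 2.44-fold, Atp6v0b 2.42-fold and Hexa 2.14-fold. Hexa, whose conditioned-medium signal was below that in regular medium, passed in this comparison only, and Sgsh, at 1.89-fold, did not pass. The median log2 differences were 0.40 for the enzymes, 0.56 for the membrane proteins and 0.39 for the V-ATPase subunits. Contact, isolation and carried-over RNA of MSCs cannot be told apart in either comparison with co-culture.

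Further genes of the lysosome, from lists of other hydrolases, membrane proteins and V-ATPase genes, gave similar values in co-culture against regular medium. Of 65 listed, 56 had a probe set and 45 were bright, of which 38 lay above regular medium and 7 below, beside 56.0% and 44.0% of all bright genes. The rule called 7 higher, beside 5.81%, and none lower, beside 2.76%, 17 were 1.5-fold higher, beside 16.9%, and the median log2 difference was 0.43. Of the 45, the 5 genes Man2b2, Npc1, Ctns, Tmem175 and Atp6v0e2 were bright through the co-culture array alone, and 3 of the 7 calls are among them. Ctns, the cystine exporter, had 83.4 in regular medium, 78.2 in conditioned medium and 395.4 after co-culture, a fold of 4.74. Npc1, the cholesterol exporter, had 75.3, 132.4 and 211.1, a fold of 2.80, with conditioned medium in between. Tmem175, an ion channel, was 1.80-fold and Ostm1, the partner of the chloride transporter ClC-7, 1.74-fold higher.

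In the list of other hydrolases, which also holds the non-enzymes Glmp and Gm2a, 24 were bright. Of these, 22 lay above regular medium, or 91.7%, beside 56.0% of all bright genes. The cysteine protease gene Ctso had 173.5, 159.0 and 380.1, a fold of 2.19. Galc, the galactosylceramidase, had 515.7, 494.4 and 1068, a fold of 2.07, but a dimmer probe set gave 206.4, 222.6 and 132.3, in the opposite direction. Glmp, a lysosomal membrane glycoprotein, was 2.04-fold and Idua, the iduronidase, 2.02-fold higher. The other bright probe set of Idua gave 1.46, under the 2-fold rule. Among the other V-ATPase genes Atp6v0e2 was 2.88-fold higher from a dim 66.9. Atp6v1g1, of the V1 sector, was 1.99-fold higher, and 1.21-fold with its other bright probe set. Atp6ap2 was 1.61-fold and the subunit a3 gene Tcirg1 1.54-fold higher.

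Genes that sort hydrolases and genes upstream of lysosomal transcription were mixed. Of 12 bright sorting genes 9 lay above regular medium in co-culture, beside 56.0% of all bright genes, and 1 was called higher, beside 5.81%, which is near that share. It was Gnptg, a subunit of the enzyme that tags hydrolases with mannose phosphate, with 74.9, 85.4 and 162.8, a fold of 2.17, and it was bright in co-culture only. The mannose 6-phosphate receptor gene Igf2r had a log2 difference of 0.46 and M6pr one of -0.20. In the TFEB family, Tfe3 had 750, 816 and 1165, a fold of 1.55. Tfeb had 80.6, 76.8 and 136.0 and was not bright on any array, and Mitf had 187.6, 178.7 and 187.2. Flcn, the folliculin gene, which acts in nutrient signalling to these factors, had 757, 788 and 1661, a fold of 2.19. The other bright probe set of Flcn gave 1.84, under the 2-fold rule. The list of 9 had 7 bright genes with a median log2 difference of 0.45.

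**Figure D4:**
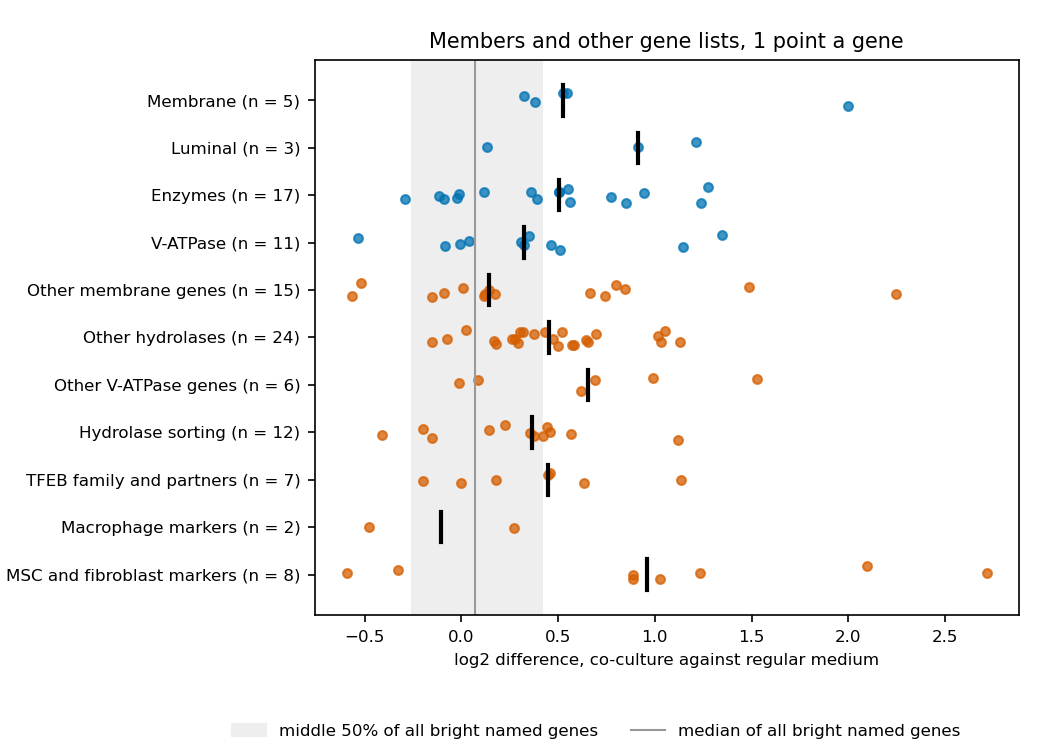
Log2 difference between co-culture and regular medium for each bright gene (1 point a gene) of the described groups (blue) and of other lists (orange), with black bars at list medians and a grey band over the middle 50% of all bright named genes. The medians of the membrane proteins, luminal proteins and enzymes lie to the right of the band, and that of the V-ATPase genes, 0.32, inside it; Bgn among the MSC markers is a lower bound.

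Macrophages are rich in lysosomes, and MSCs were in the co-culture, so markers of both were read on the same arrays. Of 15 macrophage markers, 9 lay below the floor on all arrays, among them Ptprc, Itgam, Tyrobp, C1qa and C1qb. The list was not silent throughout, as 2 were bright. Cd14 had 288.6 in regular medium, 234.4 in conditioned medium and 348.4 after co-culture, and Csf1r had 186.9, 181.4 and 134.2. Below the bright level, Ms4a7 had 15.6, 9.3 and 93.1, while Adgre1 and Laptm5 were lower in co-culture than in regular medium. The summed signal of the 15 was 822 for regular medium, 653 for conditioned medium and 819 for co-culture. Of 17 MSC and fibroblast markers, the 5 genes Col1a1, Dcn, Thy1, Mgp and Pdgfrb lay below the floor on all arrays. The summed signal of the 17 was 6838, 6987 and 9142, and 4, 5 and 7 of them were bright on the arrays in that order. In regular medium, with no MSCs in the culture, the brightest were Fbln2 at 3933, Sparc at 1390 and Postn at 766. The sum is thus not a measure of MSC RNA alone. Fbln2 was lower after co-culture, at 3139. Of the 8 bright in this comparison, Postn, Bgn, Sparc and Acta2 were at least 2-fold higher in co-culture, that is 4 of 8 beside 5.81% of all bright genes, and Col6a2 was 1.51-fold lower. Bgn, Acta2, Col1a2 and Pdgfra were below the bright level in regular medium, so the rule could not have called them lower. Acta2 was also 3.70-fold higher in conditioned medium than in regular medium. The part of MSC RNA in the lysosomal values was not tested.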

How the data were processed

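RNA of 4T1 cells, biotin-labelled, was measured on 3 Affymetrix Mouse Genome arrays, 1 for each condition. The deposited values are linear intensity values made by the authors with MAS5, per the submitters' processing notes; its version and scale are not given there. They were used with no further scaling. Of 45037 probe sets, 34945 carried a single symbol in GEO's annotation of the platform, 932 carried more and 9160 carried none; only the first were named. Symbols were brought up to date by gene ID (RefSeq, GRCm38.p6). The brightest probe set by mean signal stood for a gene, signals under the pooled 40th percentile were set to it before log2, and the size rule was 2-fold with the brighter signal at or above the pooled 60th percentile. With 1 array a condition there was no test, and precision is limited by that number. The genes and lists were chosen with earlier results of these data known. All 36 genes are given; of other lists, up to 4 genes past 1.5-fold in each direction are named, by size, and genes beside them (Tfeb, Mitf, Igf2r, M6pr, and markers) were chosen after their values were seen. Alternatives covered scaling, floor, signal filter, probe set choice and size rule, and the calling procedure was tested on simulated data. Promoters were searched for fixed letters. Scripts ran on Matplotlib 3.10.9, NumPy 2.4.6, SciPy 1.17.1, pandas 2.3.3 and Python 3.11.15.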

Additional observations from a re-analysis of the deposited data

How the results depend on the processing

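Of 132 recomputed counts and list medians of the lysosomal genes, 114 stayed close to the reported value. Close means within 1.5 times for a count and within 0.1 (log2) for a median. No gene called 2-fold in co-culture against regular medium changed direction under an alternative in which it was bright. Single genes were not recomputed for co-culture against conditioned medium. Scaling the arrays to equal medians moved the co-culture medians against regular medium to 0.64 for enzymes, 0.66 for membrane proteins and 0.46 for V-ATPase subunits, and those of conditioned medium to 0.16, 0.11 and 0.11, while all bright genes moved from 0.07 to 0.21 and from 0.01 to 0.17. Keeping only signals above the 80th percentile gave enzyme medians of 0.24 against regular and 0.13 against conditioned medium, and the mean over all probe sets gave 0.38 and 0.25. Without probe sets whose names end in _x_at, _s_at or _a_at the membrane medians were 0.85 and 0.84 over 4 genes. Lamp1, whose only probe set ends in _a_at, dropped out. Under that setting 1 gene (Atp6v1e1, a dim probe set) became higher in conditioned medium and 1 (the same probe set) lower in co-culture against it. The 1.5-fold rule gave 10 and 12 genes higher in co-culture against regular and conditioned medium, and the 3-fold rule 1 and 1. Of the 6 genes called higher in co-culture against regular medium, Sgsh was lost with a floor at the 60th percentile and with probe set means. Sgsh and Naglu were lost with the 80th percentile filter, and Atp6v0b without the probe sets of those name endings. Scaling to equal medians added Ctsd and Psap. No paired analysis was possible because each condition has 1 array, and no replicate could be left out. Dim genes such as Sgsh, Naglu, Ctns and Npc1 are the least certain.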
